A study of Homo sapiens with 22 samples.

Results

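The CXCL chemokine cluster is a run of chemokine genes on the long arm of human chromosome 4. Along the chromosome its 9 members are CXCL8, CXCL6, PF4V1, CXCL1, PF4, PPBP, CXCL5, CXCL3 and CXCL2. Every region of the 4 deposited region tables that lies between positions 73650000 and 74200000 of chromosome 4 (GRCh38) was taken, whatever its counts did. That gave 156 of 409446 regions, of which 48 of 95436 belonged to the H3K27ac table, 52 of 138731 to Jun, 18 of 66168 to CTCF and 38 of 109111 to Rad21. The rule uses position and no measured value.

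The libraries came from K562, a human leukemia line that can be pushed toward megakaryocytes or erythroid cells, labelled wild type in every group. Cultures received 25 nM PMA, a phorbol ester that activates protein kinase C, and were fixed with formaldehyde after 0, 6 or 72 h, so that the 0 h cells are the control. The assay, abbreviated CNR in the titles, was taken as CUT&RUN, in which an antibody directs a nuclease that releases the DNA beside its target. The antibodies were against H3K27ac, Jun, CTCF and Rad21, with 2 libraries per time point (22 libraries in 11 groups) and no Rad21 library at 6 h. The series as a whole asks how chromatin loops and their regulatory features change as the line differentiates. The labels do not say whether the 2 libraries of a group came from separate cultures, so the p-values below measure only the spread between them, which may be technical.

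CXC chemokines are small secreted proteins that attract leukocytes. CXCL8 (interleukin 8), CXCL1, CXCL2, CXCL3, CXCL5 and CXCL6 act on the receptor CXCR2 of neutrophils, and some of them also on CXCR1. They are induced in many cell types by NF-kappaB and AP-1, the latter a dimer of Jun and Fos family proteins. PF4 (platelet factor 4), its close copy PF4V1, and PPBP, the precursor of platelet basic protein, are made by megakaryocytes and stored in the alpha granules of platelets. H3K27ac marks active promoters and enhancers, CTCF binds insulator sites, and Rad21 is a subunit of the cohesin ring that extrudes chromatin loops and often stops at CTCF.

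The promoters are shown first because the cluster holds both kinds of gene side by side and their proximal sequences differ. RefSeq promoters (GRCh38.p14) were on hand for 8 of the 9 members, and the bases just before each gene start are printed on the gene's own strand. Capitals mark the NF-kappaB core motif GGAATTTCC, with a further G before it where present (the longer motif), the AP-1 motif TGANTCA and the GATA motif AGATAAG, each searched on both strands. A match to the longer NF-kappaB motif counts for the core as well.
CXCL8, chr4:73740419-73740568, plus strand: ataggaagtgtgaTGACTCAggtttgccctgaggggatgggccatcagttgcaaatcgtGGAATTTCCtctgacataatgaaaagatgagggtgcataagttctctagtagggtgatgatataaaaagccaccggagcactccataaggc
CXCL1, chr4:73869243-73869392, plus strand: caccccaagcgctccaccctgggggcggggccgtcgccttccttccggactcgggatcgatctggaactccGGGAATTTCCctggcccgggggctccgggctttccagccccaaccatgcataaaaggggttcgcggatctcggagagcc
CXCL3, chr4:74038690-74038839, minus strand: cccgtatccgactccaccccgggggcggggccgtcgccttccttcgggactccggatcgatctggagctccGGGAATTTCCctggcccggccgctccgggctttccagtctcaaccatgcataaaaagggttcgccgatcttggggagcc
CXCL2, chr4:74099196-74099345, minus strand: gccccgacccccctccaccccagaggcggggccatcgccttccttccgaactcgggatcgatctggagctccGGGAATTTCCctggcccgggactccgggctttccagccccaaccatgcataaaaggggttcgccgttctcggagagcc
PF4V1, chr4:73853146-73853295, plus strand: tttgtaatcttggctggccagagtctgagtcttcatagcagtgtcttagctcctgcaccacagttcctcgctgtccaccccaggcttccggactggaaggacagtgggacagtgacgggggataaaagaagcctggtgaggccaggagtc
PPBP, chr4:73988191-73988440, minus strand: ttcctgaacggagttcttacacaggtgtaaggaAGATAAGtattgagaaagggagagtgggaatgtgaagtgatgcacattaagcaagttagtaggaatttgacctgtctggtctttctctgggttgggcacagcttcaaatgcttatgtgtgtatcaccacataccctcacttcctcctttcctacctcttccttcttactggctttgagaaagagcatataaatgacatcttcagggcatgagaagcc

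The NF-kappaB core was present in 6 of the 8 member promoters (windows of 300 bases), against 0.461% of 35116 RefSeq promoters of the same length. The 6 were CXCL8, CXCL1, CXCL2, CXCL3, CXCL5 and CXCL6, and the promoters without it were those of PF4V1 and PPBP. Of the 6, 5 held the longer motif, which 0.145% of all promoters held. The first base of the match lay between -91 and -78 from the gene start in those 6. CXCL8 was the one member with the AP-1 motif, at -137 (7.71% of all promoters). PPBP was the one with the GATA string AGATAAG (2.68% of all promoters), with a match at -217 and another just inside the gene. The shorter string AGATAA, which was not searched, also stood in the CXCL5 and CXCL6 promoters. The short TATA-like string ATAAAA was found in 6 of 8, against 16% of all promoters. CXCL1 and CXCL3 were 82.5% identical over their promoter windows, CXCL2 and CXCL3 73.7%, and CXCL5 and CXCL6 83.1%, whereas CXCL8 shared between 43% and 47.2% with any other member. How the authors assigned fragments that fit more than 1 of these related copies is not given in the sources used here.

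All values below are read counts per region scaled to the library's TMM-corrected total, in CPM, unless raw counts are named. Summed over all regions, an H3K27ac library held 12634261 to 27266241 counts, and the other libraries 4766421 to 18883962 (Jun), 2553677 to 6068421 (CTCF) and 4398797 to 7285286 (Rad21). The share of counts on the mitochondrial chromosome was at most 1.47% for H3K27ac. For Jun it was 24.0% and 27.7% at 0 h, 21.3% and 18.1% at 6 h, then 9.07% and 8.58% at 72 h. Erythroid marker genes, expressed by K562, had an H3K27ac region in 8 of 8 cases, with summed levels of 644 to 658 CPM at 0 h, 295 to 357 CPM at 6 h and 278 to 300 CPM at 72 h. Megakaryocyte markers had one in 6 of 8 cases (none for GP9 and SELP), with 216 to 218 CPM at 0 h, 145 to 152 CPM at 6 h and 269 to 275 CPM at 72 h. Among the 7 monocyte and macrophage markers, CD14, ITGAM and MPEG1 had no region, and the summed level of the other 4 lay between 77.7 and 121 CPM. Endothelial markers went from 0.0568 and 0.211 CPM at 0 h to 8.32 and 9.32 CPM at 72 h, all from 1 gene of 3. The part of other cell types in the results below was not tested.

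Acetylation over the whole cluster was lower at 72 h than before. Summed over its 48 regions, H3K27ac stood at 792 and 785 CPM at 0 h, at 687 and 777 CPM at 6 h and at 418 and 429 CPM at 72 h. The 0 h and 6 h libraries did not overlap but lay close together, and both 72 h libraries were far below all others. The mean at 72 h was 0.537 times that at 0 h (788.5 ± 5.32 against 423.3 ± 7.70, SD, n = 2). An exact permutation test over the 6 libraries gave p = 0.067, the smallest this design allows. Scaled by total counts, the 6 h sum lay above the 0 h sum (ratio 1.17), so no direction is given for 6 h.

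Single regions went both ways. edgeR's quasi-likelihood test, adjusted over all 94865 tested H3K27ac regions, called 29 of the 48 regions at 6 h against 0 h (58.6% of all tested regions were called in that comparison), 21 of them higher and 8 lower, where 32.3% of all regions were called higher and 26.3% lower. At 72 h against 0 h it called 39 of 48 (81.5% of all regions), 11 higher and 28 lower, where 43.4% of all regions were called higher and 38.1% lower. From 6 to 72 h it called 37 of 48 (63.8% of all regions), 3 higher and 34 lower, where 33.1% of all regions were called higher and 30.8% lower. The number of calls in the cluster was thus near the background share at 6 and 72 h against 0 h, while the median log2 fold change was -0.86 at 72 h against 0 h and -0.97 from 6 to 72 h, against 0.185 and 0.022 over all regions. The contrasts against 0 h share the same 0 h libraries. Scaling by total counts, which moved the median of all regions at 6 h from 0.195 to 0.528, turned the 6 h split into 27 higher and 3 lower.

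**Figure D1:**
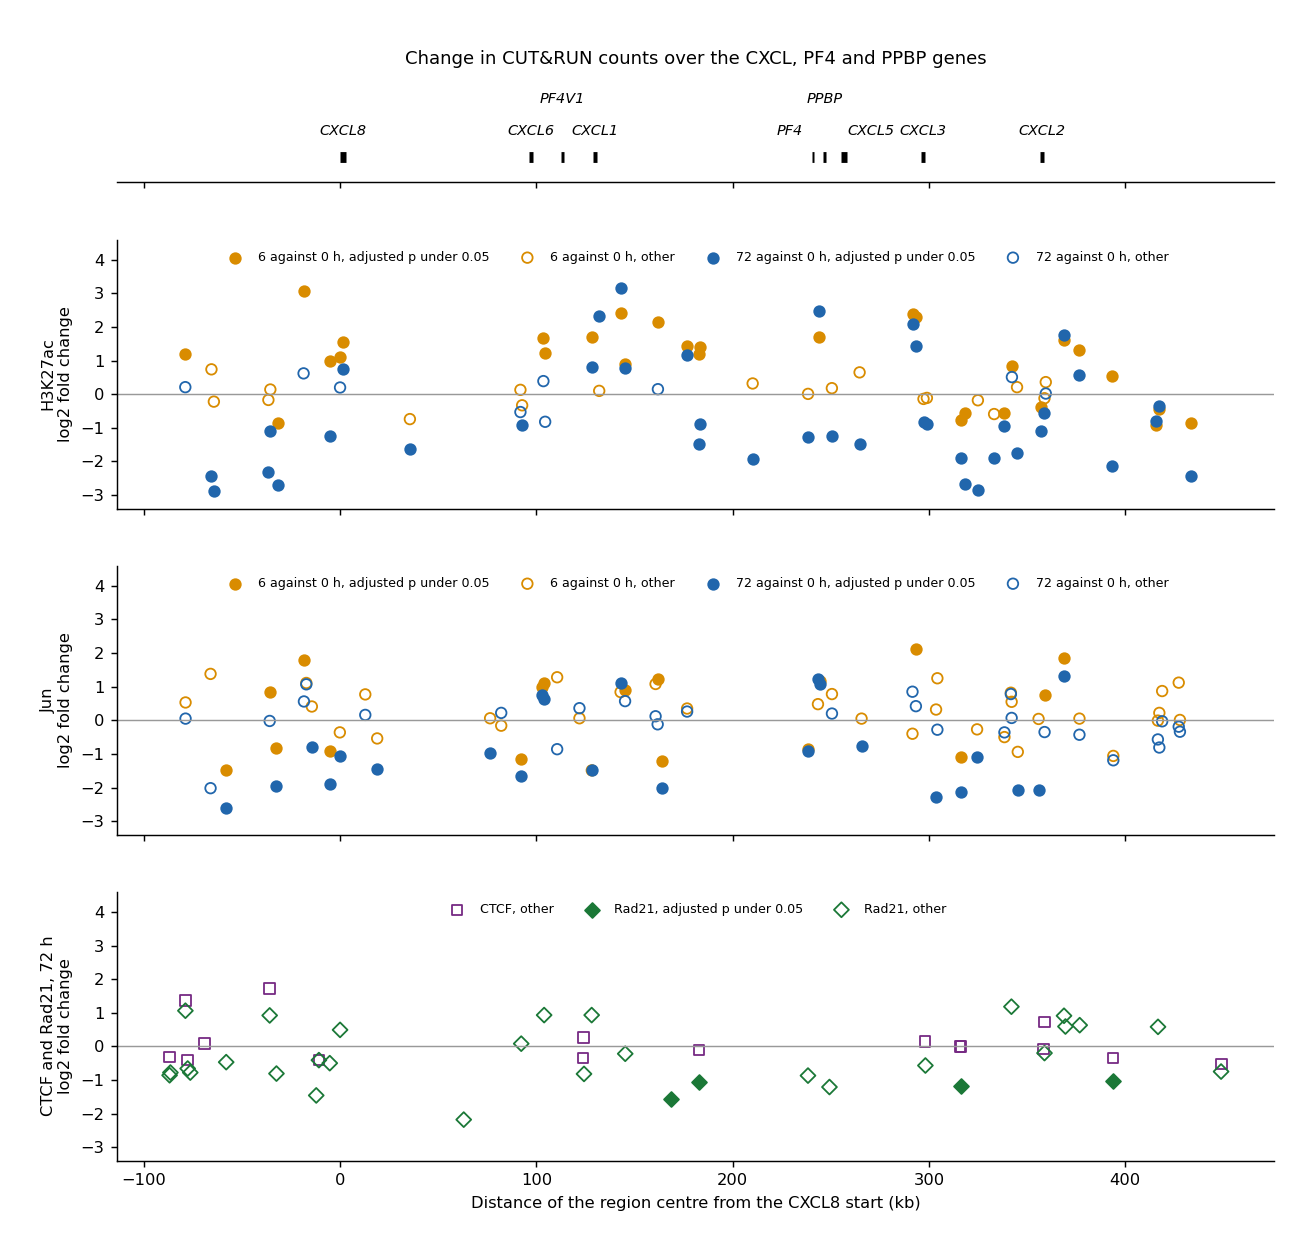
Log2 fold change of every tested region against its distance in kb from the CXCL8 start, with the 9 genes marked, for H3K27ac and Jun (6 h in orange and 72 h in blue, both against 0 h) and for CTCF and Rad21 (72 h against 0 h). Filled points passed an adjusted p of 0.05. The H3K27ac points near CXCL1 lie mostly above 0, and most H3K27ac points upstream of CXCL8 and around CXCL3 lie below 0 at 72 h.

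The time courses of the 48 regions fell into a few kinds by their calls. The commonest, with 15 regions, was no call at 6 h followed by a fall, with 72 h against 0 h log2 fold changes between -2.89 and -0.56. A rise at 6 h followed by a fall from 6 to 72 h was called at 14 regions: 4 of these were still above their 0 h level at 72 h, 4 were below it and 6 were not called against it. In 5 regions each step was called lower, and in 2 each step was called higher, with log2 fold changes at 72 h against 0 h of 2.47 and 3.17. In 2 regions no contrast was called.

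Per length, the starts of CXCL2, CXCL3, CXCL8 and CXCL1 differed in untreated cells. Within 2 kb of the gene start, CXCL2 carried 27.4 and 26.2 H3K27ac CPM per kb at 0 h and CXCL3 carried 25.2 and 27.1. These overlapped each other and lay above CXCL8, at 7.30 and 6.65 CPM per kb, which lay above CXCL1, at 3.47 and 3.40. At 6 h the order was CXCL3 (22.8 and 25.1 CPM per kb) and CXCL2 (21.2 and 22.9), which overlapped, then CXCL8 (14.9 and 17.2) and CXCL1 (10.0 and 12.1). By 72 h CXCL2 (14.6 and 14.4 CPM per kb) and CXCL3 (14.2 and 14.4) still overlapped and led, with CXCL8 at 8.76 and 8.58 and CXCL1 at 5.63 and 6.43. Within 2 kb of the PF4 span, used because its strand is not in the tables here, the level was 5.42 and 4.58 CPM per kb at 0 h, 7.25 and 7.35 at 6 h, then 7.08 and 7.53 at 72 h. No H3K27ac region lay within 2 kb of the starts of CXCL6, CXCL5, PF4V1 or PPBP.

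The CXCL8 start rose at 6 h and fell again by 72 h. CXCL8 encodes the neutrophil attractant interleukin 8, and the region over its start (chr4:73739670-73741489, inside the gene and its upstream flank) held 270 and 254 raw counts at 0 h, 423 and 664 at 6 h, then 476 and 434 at 72 h. In CPM these were 15.3 and 13.4, then 29.6 and 32.7, then 17.2 and 15.8. Both 6 h libraries were above all others, and the 72 h libraries lay just above the 0 h libraries. The region rose at 6 h (log2 fold change 1.12, SE 0.125, adjusted p 2.69e-08) and fell from 6 to 72 h (-0.92, SE 0.119, adjusted p 3.14e-07). At 72 h against 0 h it was not called (0.20, SE 0.126, adjusted p 0.137), but it was called higher with total counts scaling (0.44, adjusted p 0.00206), totals outside the mitochondrial chromosome (0.43), a mean count of at least 50 (0.36, adjusted p 0.00777) and only the 2 times compared (0.28, adjusted p 0.0375). The next region inside CXCL8 (chr4:73741648-73742331) went from 2.95 and 3.27 CPM to 7.63 and 10.3 and then 4.71 and 5.68, and was still called higher at 72 h (0.74, SE 0.218, adjusted p 0.00343).

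Upstream of CXCL8 most elements were called lower at 72 h against 0 h, though some were called higher at 6 h. A strong element centred 31.8 kb upstream of the start (chr4:73707925-73709688), within the span of the long non-coding RNA gene INKILN, had 58.2 and 62.8 CPM at 0 h, 33.2 and 34.1 at 6 h, then 8.65 and 9.87 at 72 h. Every later pair of libraries lay below the earlier pair. The fall was called at each step, with a log2 fold change of -0.85 at 6 h (SE 0.107, adjusted p 2.28e-07) and -2.71 at 72 h, both against 0 h (SE 0.117, adjusted p 7.06e-17). A second INKILN element (chr4:73703460-73704680), named here after its values were seen, kept 24.1 and 27.4 CPM at 6 h against 27.5 and 30.6 at 0 h, and dropped to 6.88 and 4.81 at 72 h (-2.31, SE 0.147, adjusted p 1.73e-13). Closer to the gene, a short element centred 18.6 kb upstream (chr4:73721850-73722153) did the opposite for a time, with 9 and 6 raw counts at 0 h, 53 and 68 at 6 h, then 19 and 16 at 72 h. It rose at 6 h (3.08, SE 0.438, adjusted p 1.39e-06) and fell again (-2.46, SE 0.382, adjusted p 4.91e-06). The next element toward the gene was centred 5.3 kb upstream (chr4:73734845-73735666, named after its values were seen). It was called higher at 6 h and lower at 72 h, both against 0 h. Of the 11 regions nearest to CXCL8, 5 were called higher and 1 lower at 6 h, and 1 higher and 7 lower at 72 h, both against 0 h. The shares over all H3K27ac regions were 32.3% higher and 26.3% lower at 6 h, and 43.4% higher and 38.1% lower at 72 h.

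CXCL1 was the member whose surroundings gained acetylation most widely. CXCL1 encodes a CXCR2 ligand, and the region over its start (chr4:73868562-73869461) had 55 and 58 raw counts at 0 h, 129 and 222 at 6 h, then 140 and 159 at 72 h. In CPM it stood at 3.12 and 3.06, then 9.03 and 10.9, then 5.07 and 5.79, with no overlap between any 2 time points. The rise at 6 h (log2 fold change 1.70, SE 0.202, adjusted p 8.69e-08) was partly lost by 72 h (0.81 against 0 h, SE 0.206, adjusted p 0.000892). Of the 8 regions nearest to CXCL1, 7 were called higher and none lower at 6 h, and 5 higher and 2 lower at 72 h, both against 0 h. Over all H3K27ac regions 32.3% were called higher and 26.3% lower at 6 h, and 43.4% higher and 38.1% lower at 72 h. Their summed level was 10.2 and 10.6 CPM at 0 h, 34.2 and 32.1 at 6 h, then 25.0 and 23.7 at 72 h. CXCL1 and PPBP were the 2 of 8 genes with a nearest H3K27ac region whose sum stood above its 0 h level at 72 h.

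The element with the highest fold gain at 72 h lies downstream of CXCL1. Centred 14.2 kb past the CXCL1 start and outside every annotated gene span (chr4:73882976-73884278), it had 1.53 and 0.843 CPM at 0 h, 6.30 and 6.30 at 6 h, then 10.6 and 10.6 at 72 h. It climbed at each step, with a log2 fold change of 2.41 at 6 h (SE 0.257, adjusted p 1.25e-08), a further 0.76 from 6 to 72 h (SE 0.184, adjusted p 0.00097) and 3.17 in all (SE 0.237, adjusted p 4.86e-12). A weaker element 3.2 kb downstream of the start (chr4:73872416-73872752) appeared late, with 9 and 3 raw counts at 0 h, 8 and 4 at 6 h, then 49 and 43 at 72 h (72 against 0 h 2.32, SE 0.57, adjusted p 0.000652). It was the 1 region of the 48 with no call at 6 h and a called rise at 72 h against both earlier times.

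**Figure D2:**
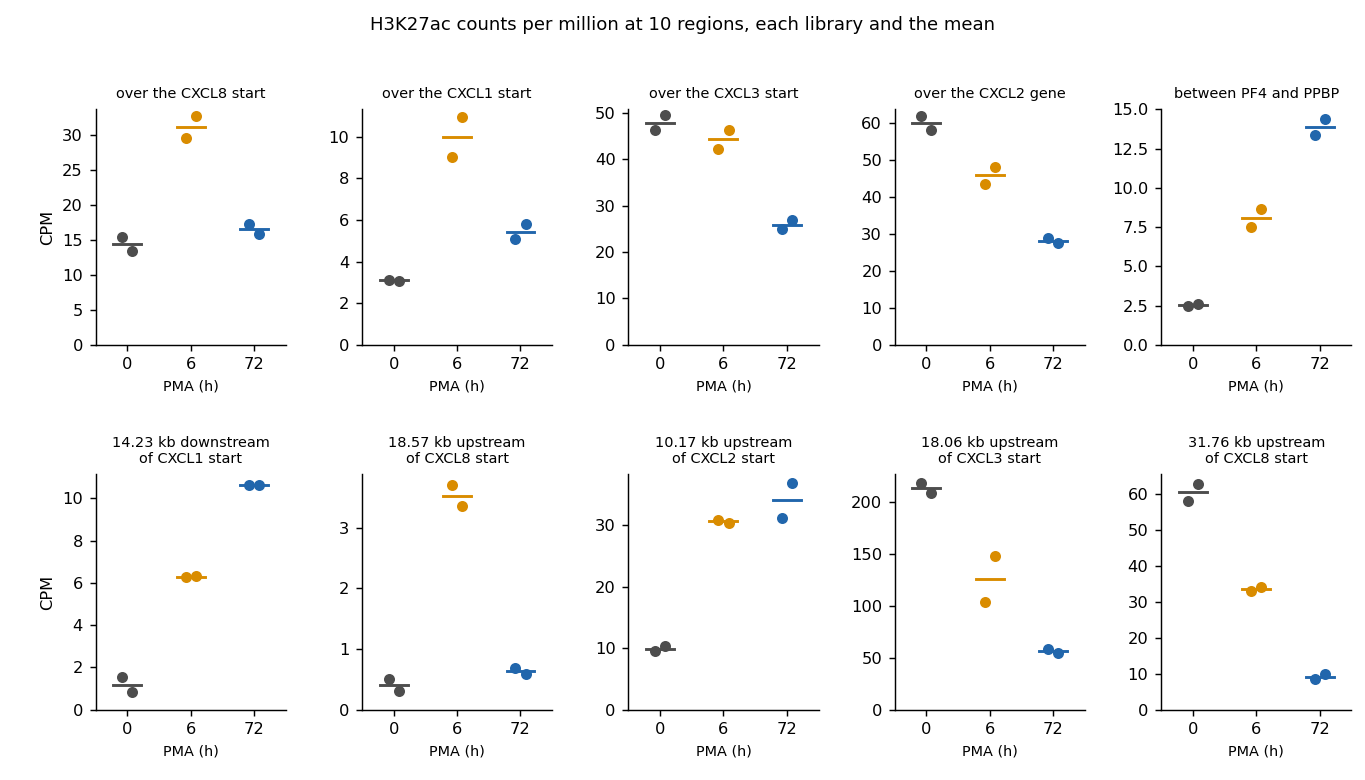
H3K27ac CPM per library (points, 2 per time point) with the mean (line) at 0, 6 and 72 h for 10 elements, each on its own axis from 0. The CXCL8 and CXCL1 start regions peak at 6 h, the CXCL3 start and the CXCL2 gene fall at 72 h, the elements downstream of CXCL1 and between PF4 and PPBP climb at each step, and the strong element upstream of CXCL3 falls at each step.

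The starts of CXCL3 and CXCL2 lost acetylation at 72 h. CXCL3, the near copy of CXCL1, had at its start (chr4:74038597-74040423) 46.2 and 49.6 CPM at 0 h, 42.3 and 46.3 at 6 h, then 24.9 and 26.9 at 72 h. The 0 h and 6 h libraries overlapped, and both 72 h libraries were lower. The fall at 72 h was called against 0 h (log2 fold change -0.89, SE 0.107, adjusted p 3.75e-08) and against 6 h (-0.78, SE 0.108, adjusted p 8.95e-07), while the 6 h value (-0.11, adjusted p 0.375) turned to a called rise of 0.22 with total counts scaling. The region over most of the CXCL2 gene (chr4:74096776-74098955), whose product also acts on CXCR2, went from 62.0 and 58.2 CPM to 43.6 and 48.1 and to 28.8 and 27.5, each pair below the one before. Its fall was -1.09 at 72 h (SE 0.105, adjusted p 6.6e-10), and the smaller fall at 6 h (-0.39, SE 0.105, adjusted p 0.00272) was lost with total counts scaling (-0.05) and without the first 0 h library (-0.34, adjusted p 0.0543). At the start of CXCL2 itself (chr4:74099120-74099705) the values were 15.7 and 17.4, 15.2 and 15.3, and 10.9 and 11.6 CPM, with a fall of -0.56 at 72 h against 0 h (SE 0.131, adjusted p 0.0004).

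The strongest acetylated element of the cluster stood between CXCL3 and CXCL2 and fell most in absolute terms. Centred 18.1 kb upstream of the CXCL3 start and across the pseudogene PPBPP2 (chr4:74055263-74058229), it held 3841 and 3960 raw counts at 0 h, 1484 and 2999 at 6 h, then 1626 and 1494 at 72 h. In CPM it went from 218 and 209 to 104 and 148 and to 58.9 and 54.4, each pair below the one before. This single element made up 27.5% and 26.6% of the H3K27ac CPM of the cluster at 0 h and 14.1% and 12.7% at 72 h. It was called lower at 6 h (-0.76, SE 0.126, adjusted p 1.27e-05) and at 72 h (-1.91, SE 0.13, adjusted p 6.82e-13), both against 0 h. Its neighbour (chr4:74058438-74059284), named after its values were seen, dropped from 50.7 and 46.3 to 7.60 and 7.54 CPM at 72 h (-2.68, SE 0.132, adjusted p 1.14e-15). A region further upstream (chr4:74065002-74065979) went from 17.5 and 14.8 to 1.77 and 2.70 CPM (-2.85, SE 0.209, adjusted p 3.25e-12). Without the strongest element the summed H3K27ac of the cluster at 72 h was 0.638 times that at 0 h.

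Not every element near these genes fell. Downstream of CXCL3, at 4.8 kb from its start, a region (chr4:74033305-74034430) named after its values were seen rose from 5.45 and 5.53 CPM to 26.5 and 27.9 at 6 h and stood at 15.1 and 14.6 at 72 h. Its log2 fold change was 2.31 at 6 h (SE 0.141, adjusted p 4.07e-13) and 1.43 at 72 h (SE 0.142, adjusted p 1.18e-09). The region beside it (chr4:74032084-74032677) had 1.19 and 2.00 CPM at 0 h, 8.96 and 8.07 at 6 h, then 5.97 and 7.83 at 72 h (2.39 and 2.1 against 0 h). Upstream of CXCL2, at 10.2 kb (chr4:74108385-74110354), another region named after its values were seen went from 9.48 and 10.4 CPM to 30.9 and 30.4 at 6 h and kept 31.2 and 36.9 at 72 h. That rise was 1.62 at 6 h (SE 0.13, adjusted p 6.94e-11) and 1.77 at 72 h (SE 0.126, adjusted p 1.79e-12), with no call from 6 to 72 h (0.15, adjusted p 0.238).

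The platelet chemokines PF4 and PPBP sit 4.3 kb apart, and the gap between them held a gained element. The region (chr4:73983812-73985214, outside both gene spans, 1.69 kb from PF4 and 1.23 kb from PPBP) had 43 and 49 raw counts at 0 h, 107 and 176 at 6 h, then 370 and 396 at 72 h. In CPM it climbed from 2.44 and 2.58 to 7.49 and 8.66 and to 13.4 and 14.4, with no overlap between time points. Each step was called, with log2 fold changes of 1.69 at 6 h (SE 0.2, adjusted p 7.48e-08), 0.78 from 6 to 72 h (SE 0.158, adjusted p 0.000152) and 2.47 at 72 h against 0 h (SE 0.185, adjusted p 5.35e-12). Elements on the outer sides of the pair went the other way. On the far side of PF4, 1.3 kb from its span (chr4:73978447-73979506), the values were 10.9 and 8.70 CPM at 0 h, 10.4 and 9.45 at 6 h, then 4.05 and 4.12 at 72 h (72 against 0 h -1.26, SE 0.178, adjusted p 5.56e-07). Upstream of PPBP, at 2.9 kb (chr4:73990281-73991941, named after its values were seen), 14.4 and 13.5 CPM at 0 h became 6.23 and 5.68 at 72 h (-1.23, SE 0.147, adjusted p 3.32e-08). Which of PF4 and PPBP, if either, the element between them serves was not tested.

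**Figure D3:**
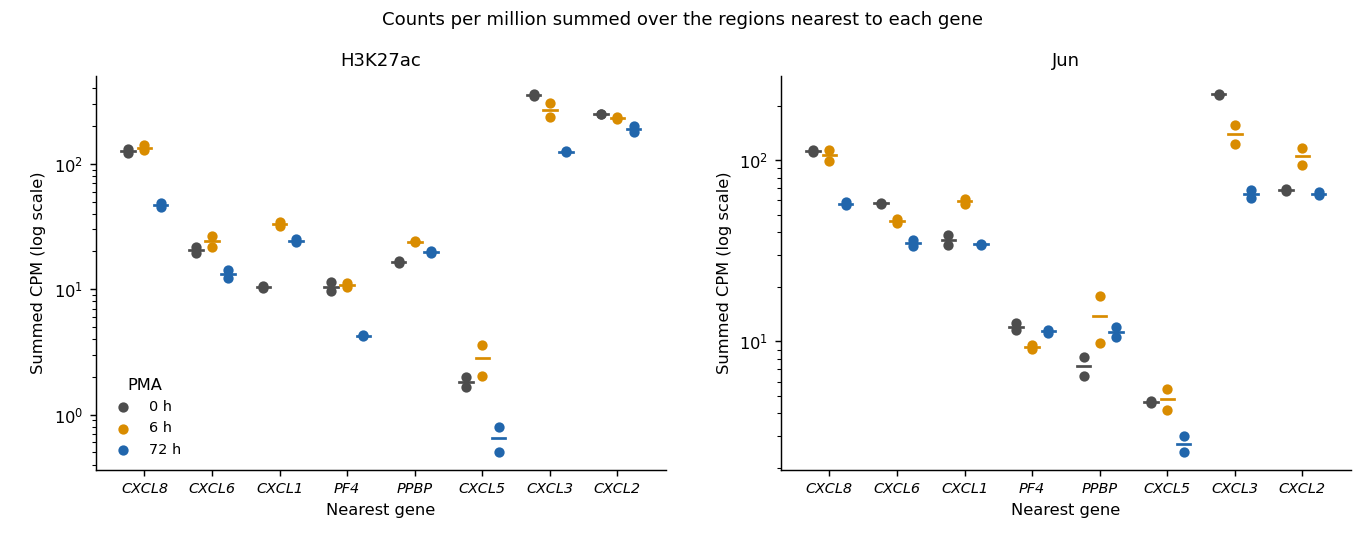
Summed H3K27ac (left) and Jun (right) CPM over the regions nearest to each of 8 genes, on a log axis, at 0, 6 and 72 h, with points for the 2 libraries and lines for the mean. The H3K27ac sums nearest to CXCL3 and CXCL8 drop at 72 h, and those nearest to CXCL1 and PPBP stay above their 0 h level.

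Beyond CXCL2, within the span of its neighbour MTHFD2L, and at the far side of CXCL8, some regions were called lower from 6 to 72 h and others were not. The second strongest region of the cluster (chr4:74156473-74159514) lay within the MTHFD2L span. It had 108.5 and 107.8 CPM at 0 h, 77.1 and 82.2 at 6 h, then 79.2 and 90.8 at 72 h. It was not called from 6 to 72 h (0.09, adjusted p 0.46). Its small neighbour (chr4:74156112-74156409) likewise fell at 6 h (-0.91, adjusted p 0.000233) and was not called from 6 to 72 h (0.10, adjusted p 0.657). At chr4:74132884-74134379, 34.4 kb upstream of the CXCL2 start, H3K27ac went from 10.1 and 8.33 CPM to 14.3 and 12.4 at 6 h and to 1.95 and 2.19 at 72 h (72 against 0 h -2.15, SE 0.197, adjusted p 2.64e-10). Its rise at 6 h (0.53, adjusted p 0.00846) was lost with DESeq2 (0.47, adjusted p 0.0996) and without the second 0 h or the first 6 h library (0.40 and 0.43). At chr4:74173986-74174467 it went from 3.52 and 3.58 to 0.688 and 0.619 CPM at 72 h (-2.43, SE 0.349, adjusted p 6.76e-07). A pair of weak regions 65.5 and 64.3 kb upstream of CXCL8 (chr4:73674858-73675272 and chr4:73676170-73676424) had at most 3.10 CPM in any library and fell by 2.43 and 2.89 on the log2 scale at 72 h against 0 h (adjusted p 2.85e-05 and 2.03e-05).

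CXCL6 and CXCL5, a pair of related neutrophil attractants, had no H3K27ac region within 2 kb of their starts. At 0 h the 4 regions nearest to CXCL6 summed to 21.6 and 19.3 CPM, and the 1 nearest to CXCL5 held 1.65 and 2.00 CPM. The strongest of the 4 regions nearest to CXCL6 (chr4:73832722-73833929, 3.4 kb upstream of the start, named after its values were seen) had 14.3 and 13.8 CPM at 0 h, 9.94 and 12.3 at 6 h, then 8.33 and 6.41 at 72 h (72 against 0 h -0.93, SE 0.159, adjusted p 8.63e-06). A region 7.5 kb downstream of the CXCL6 start (chr4:73843645-73844673), also named after its values were seen, went the other way at 6 h, from 2.84 and 2.37 to 8.89 and 7.68 CPM (1.66, SE 0.222, adjusted p 5.48e-07), and back to 3.55 and 3.28. The 1 region nearest to CXCL5 held between 14 and 73 raw counts in the 6 libraries and was called lower at 72 h against 0 h. No H3K27ac region was nearest to PF4V1.

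Summed Jun in the cluster was lower at 72 h than at 0 h over all its regions, by an amount that differed with the scaling. Summed over 52 regions, Jun stood at 529 and 532 CPM at 0 h, 445 and 528 at 6 h, then 284 and 281 at 72 h, with both 72 h libraries below all others. The mean at 72 h was 0.533 times that at 0 h (530.5 ± 1.55 against 282.8 ± 2.15, SD, n = 2), and the exact permutation p was 0.067, the smallest possible. Scaled by total counts the ratio was 0.786 (exact permutation p 0.2). The part of the mitochondrial share of the Jun libraries, given above, in this ratio was not tested. Without the region of highest mean CPM the ratio was 0.731, and with both changes together it was 1.08, so that the direction turned.

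By region, edgeR called 17 of the 51 tested Jun regions at 6 h against 0 h (25.3% of all 132947 tested regions), 10 higher and 7 lower, where 13.1% of all regions were called higher and 12.2% lower. At 72 h against 0 h it called 23 (53.7% of all regions), 6 higher and 17 lower, where 28% of all regions were called higher and 25.7% lower. From 6 to 72 h it called 18 (26.2% of all regions), all lower, where 12.7% of all regions were called higher and 13.5% lower. The median log2 fold change of the 51 was -0.34 at 72 h against 0 h and -0.71 from 6 to 72 h, against 0.172 and 0.022 over all regions. The late split depended on the scaling: total counts gave 14 higher and 10 lower at 72 h against 0 h, and total counts outside the mitochondrial chromosome gave 10 and 13. Leaving out a 72 h library left 8 or 5 calls from 6 to 72 h, and leaving out a 0 h library left 11 or 10 calls at 6 h.

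The Jun region within the strong element upstream of CXCL3 (chr4:74056339-74057600) had 1445 and 1449 raw counts at 0 h, 399 and 576 at 6 h, then 1067 and 1071 at 72 h, when the Jun libraries were deepest. In CPM it went from 211 and 208 to 90.6 and 105 and to 50.7 and 45.5. At 0 h it made up 39.8% and 39.1% of the Jun CPM of the cluster, and at 72 h 17.8% and 16.2%. The fall was called at 6 h (log2 fold change -1.1, SE 0.196, adjusted p 0.000282) and at 72 h (-2.12, SE 0.198, adjusted p 4.67e-08), both against 0 h. The step from 6 to 72 h (-1.03, SE 0.196, adjusted p 0.000658) was lost without the second 72 h library (-0.95, adjusted p 0.0627).

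At the member starts Jun regions were few. Jun regions lay within 2 kb of the starts of CXCL8, CXCL1 and CXCL2 and of the PF4 span, and none lay there for CXCL6, PF4V1, PPBP, CXCL5 or CXCL3. The CXCL8 start (chr4:73740007-73740923), whose promoter holds the AP-1 motif printed above, had 20.4 and 20.8 CPM at 0 h, 12.7 and 19.2 at 6 h, then 10.1 and 9.64 at 72 h. It was lower at 72 h than at 0 h (-1.06, SE 0.203, adjusted p 0.000168), a call lost with total counts scaling (-0.50, adjusted p 0.0519), and was not called at 6 h (-0.36, adjusted p 0.257). At 6 h, therefore, H3K27ac at this start was called higher while Jun there was not called, and the difference between the 2 marks was not tested.

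The CXCL2 start (chr4:74099154-74099749) went from 13 and 13.2 CPM of Jun to 19.8 and 23.7 at 6 h and to 11.5 and 9.08 at 72 h, the 6 h libraries being highest. Its rise (0.74, SE 0.217, adjusted p 0.0156) was lost with DESeq2 (0.68, adjusted p 0.0889) and when either 0 h library or the second 6 h library was left out (0.51 to 0.75), and its fall from 6 to 72 h was -1.08 (SE 0.204, adjusted p 0.000571), lost without the second 72 h library (-0.92, adjusted p 0.06). Upstream of CXCL1 at 0.6 kb a thin region (chr4:73868724-73868923) had 20 and 12 raw counts at 0 h, 5 and 3 at 6 h, then 12 and 25 at 72 h. Its call at 72 h (-1.48, adjusted p 0.0289) was lost under 7 of the alternatives, so no direction is drawn from it.

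Among distal elements Jun moved both ways. Upstream of CXCL6, at 3.8 kb (chr4:73832444-73833297), it fell from 41.9 and 39.6 CPM to 17 and 19.3 at 6 h, then 11.8 and 13.8 at 72 h (-1.16 at 6 h, SE 0.199, adjusted p 0.000188, and -1.67 at 72 h, SE 0.184, adjusted p 3.2e-07). Within the INKILN span (chr4:73707793-73708423, named after its values were seen) it fell from 23.5 and 23.9 to 12.9 and 14.1 and to 5.90 and 6.28 CPM (72 against 0 h -1.96, SE 0.194, adjusted p 9.01e-08). The element 18.4 kb upstream of CXCL8 (chr4:73721926-73722436) rose from 2.92 and 2.29 to 9.53 and 8.58 CPM at 6 h (1.79, SE 0.328, adjusted p 0.000368) and had 3.80 and 3.86 at 72 h, against 0 h not called (0.56, adjusted p 0.144) except with either total counts scaling. A region 33 kb downstream of the CXCL1 start (chr4:73901986-73902740, named after its values were seen) went from 13.9 and 16.9 to 35.9 and 35.8 and back to 13.4 and 14.9 CPM (1.22 at 6 h, SE 0.2, adjusted p 0.00012).

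Some thin Jun regions had large late falls. At 57.9 kb upstream of CXCL8 (chr4:73682414-73682876) Jun had 5.69 and 6.16 CPM at 0 h, 1.82 and 2.37 at 6 h, then 1.24 and 0.722 at 72 h (72 against 0 h -2.60, SE 0.384, adjusted p 1.02e-05). A region 35.4 kb downstream of the CXCL1 start (chr4:73904597-73904950) went from 5.98 and 7.17 to 1.62 and 1.66 CPM at 72 h (-2.00, SE 0.32, adjusted p 2.47e-05). At 5.5 kb upstream of CXCL3 (chr4:74044075-74044285) the values were 3.50 and 3.15, 1.82 and 6.20, and 0.856 and 0.509 CPM, with the 6 h libraries far apart (72 against 0 h -2.28, SE 0.515, adjusted p 0.000844). Beside PF4, at the outer element (chr4:73978621-73979319), Jun went from 7.88 and 9.17 to 4.38 and 4.75 CPM at 72 h (-0.90, SE 0.248, adjusted p 0.00437), a call lost with total counts scaling (-0.33) and without the first 72 h library (-0.84).

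Jun was called higher at 1 of the gained elements beside CXCL3 and at the one beside CXCL2. At 4.8 kb downstream of the CXCL3 start (chr4:74033565-74034253) the values were 4.38 and 7.17 CPM at 0 h, 19.5 and 29.9 at 6 h, then 7.89 and 7.60 at 72 h (2.11 at 6 h, SE 0.267, adjusted p 7.61e-06, and -1.69 from 6 to 72 h, SE 0.231, adjusted p 2.55e-05). At 72 h against 0 h it was not called (0.42, adjusted p 0.188), but it was with total counts (0.99, adjusted p 0.00375) and with total counts outside the mitochondrial chromosome (0.68, adjusted p 0.0348). At the other gained element beside CXCL3 the Jun region (chr4:74031965-74032375, named after its values were seen) was called in no contrast, with 1.46 and 2.01 CPM at 0 h, 1.36 and 1.28 at 6 h, then 3.14 and 3.14 at 72 h. At 10.3 kb upstream of CXCL2 (chr4:74108773-74110212) Jun went from 8.60 and 11 to 23.4 and 46.5 CPM at 6 h, where the libraries lay far apart, and to 24.2 and 25.3 at 72 h. That region was called higher at 6 h (1.84, SE 0.266, adjusted p 3e-05) and at 72 h (1.33, SE 0.255, adjusted p 0.000172), both against 0 h.

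Between PF4 and PPBP there were 2 Jun regions. The one nearer PF4 (chr4:73983687-73984359) had 2.48 and 2.72 CPM at 0 h, 3.18 and 4.01 at 6 h, then 6.09 and 6.03 at 72 h, and was called higher at 72 h (1.22, SE 0.307, adjusted p 0.00218). The one nearer PPBP (chr4:73984653-73985221, named after its values were seen) had 3.35 and 2.58, then 5.22 and 7.85, then 5.47 and 7.09 CPM, and its call at 72 h (1.08, adjusted p 0.00568) was lost with DESeq2 (0.99, adjusted p 0.0705) and without the second library of 0 h or of 72 h. Downstream of CXCL1 (chr4:73883173-73883801), where the H3K27ac fold change at 72 h against 0 h was the highest of the cluster, Jun went from 2.19 and 2.58 to 4.99 and 3.65 and to 5.23 and 5.01 CPM. Its call at 72 h (1.1, SE 0.325, adjusted p 0.00712) was lost with DESeq2 (1.01, adjusted p 0.091) and in 3 of the 4 fits without a 0 or 72 h library.

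**Figure D4:**
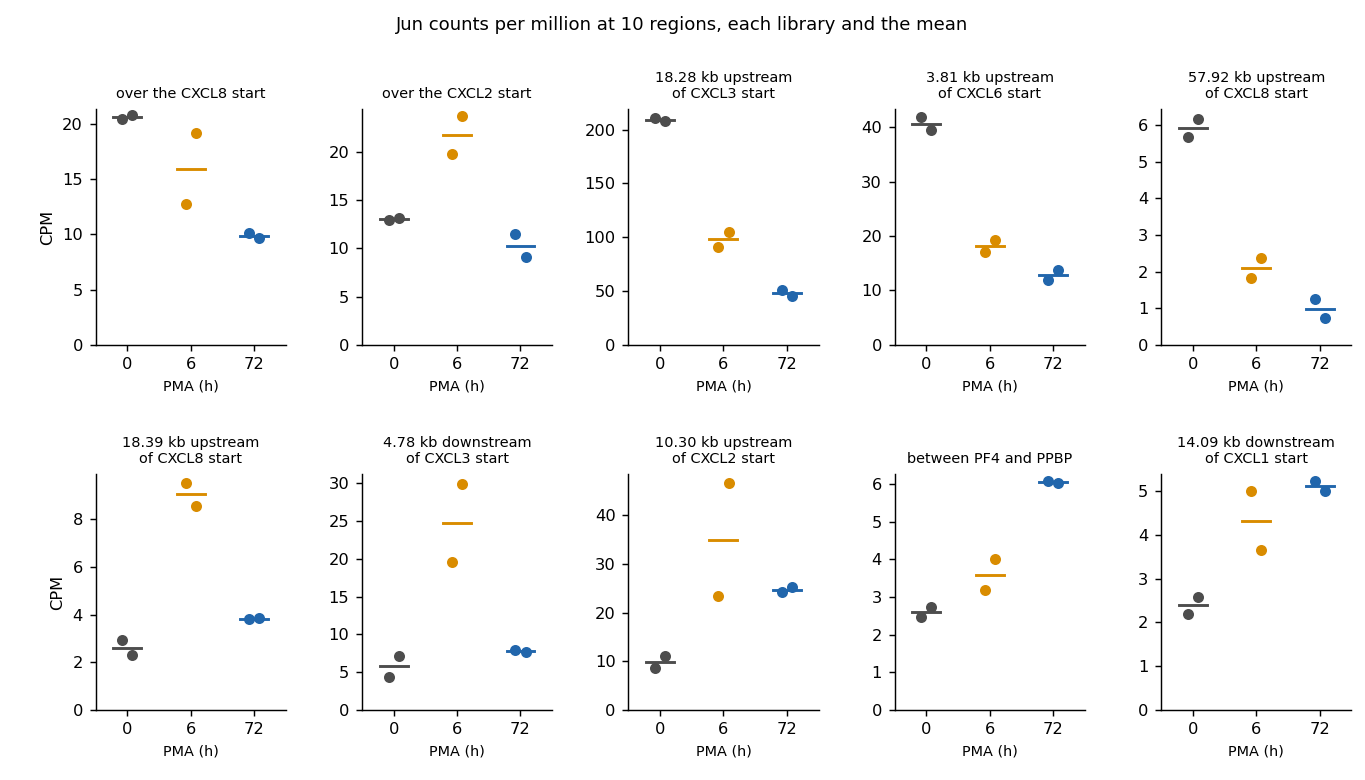
Jun CPM per library (points, 2 per time point) with the mean (line) at 0, 6 and 72 h for 10 elements, each on its own axis from 0. Jun at the strong element upstream of CXCL3 falls at each step, the element downstream of CXCL3 peaks at 6 h, and the 2 libraries at 6 h upstream of CXCL2 lie far apart.

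H3K27ac and Jun regions overlapped in part: 30 of the 48 H3K27ac regions (62.5%) overlapped a Jun region by at least 1 bp, and 33 of the 52 Jun regions (63.5%) overlapped an H3K27ac region. Of the 28 H3K27ac regions called lower at 72 h against 0 h, 14 overlapped no Jun region, 7 overlapped one called lower and 7 one not called. Of the 11 called higher, 3 overlapped a Jun region called higher, 1 a region called lower, 5 a region not called and 2 none. The overlaps were not counted over the regions outside the cluster, so whether they are particular to it was not tested. The deposited peak lists, which the authors called in each library, moved differently from the counts for Jun. They held 10 and 12 Jun peaks in the cluster at 0 h, 15 and 20 at 6 h, then 31 and 35 at 72 h. H3K27ac peaks numbered between 25 and 32 in every library. At a −log10 q of at least 10, H3K27ac had 11 and 13 peaks at 0 h, 2 and 8 at 6 h, then 13 and 12 at 72 h. With that cut Jun had 8 and 8 at 0 h, 8 and 12 at 6 h, then 20 and 22 at 72 h. The Jun libraries at 72 h were also the deepest, and the part of depth in the number of peaks was not tested. Peaks outside the cluster were not counted, so these numbers do not say whether the rise was particular to the cluster.

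CTCF was called at no region of the cluster. edgeR called 0 of the 16 tested CTCF regions at 6 h against 0 h (2.65% of all 58156 tested regions, 2.33% higher and 0.325% lower), 0 at 72 h against 0 h (6.79%, 4.07% higher and 2.72% lower) and 0 from 6 to 72 h (2.18%, 0.449% higher and 1.73% lower). Leaving out 1 library at a time, which leaves a group with 1 library, moved those shares far. The share at 72 h against 0 h was lower in each such fit, and the others moved both ways. The counts at an unadjusted p under 0.05 were 0, 2 and 2, and DESeq2 also called 0 in each comparison. The summed CTCF level was 213 and 214 CPM at 0 h, 193 and 211 at 6 h, then 202 and 180 at 72 h, with the 6 h and 72 h libraries overlapping (exact permutation p over the 6 libraries 0.267). The SE of a single region's log2 fold change at 72 h against 0 h was 0.256 or more. Changes well above that SE could go uncalled, as the widest values below did, so the lack of calls sets no narrow limit on change. The widest values were at chr4:73661629-73662047 (4.33 and 2.53 CPM at 0 h, 10.1 and 8.29 at 72 h, log2 fold change 1.37, adjusted p 0.0688) and at chr4:73704536-73704876 (2.04 and 1.08, 6.45 and 4.50 CPM, 1.72, adjusted p 0.112), both named after their values were seen. Both passed when only the 2 time points compared were fitted, and with total counts scaling.

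Of the 18 CTCF regions, 6 had a deposited peak in both libraries at all 3 time points, and none of the 6, chosen for those peaks, lay at a chemokine gene start. In order along the chromosome they lay at chr4:73653400-73654084, chr4:73662629-73663265 and chr4:73729571-73730209 upstream of CXCL8, at chr4:73923154-73923931 between CXCL1 and PF4, and at chr4:74133988-74134797 and chr4:74189186-74189890 within the span of MTHFD2L, the mitochondrial folate enzyme gene beyond CXCL2. The strongest, within MTHFD2L, had 33.1 and 37.9 CPM at 0 h, 25.3 and 39.9 at 6 h, then 28.6 and 27.3 at 72 h, with the 6 h libraries spanning all others. CTCF at the CXCL3 start (chr4:74038132-74039063) had 20.9 and 7.58 CPM at 0 h, 14.6 and 16.3 at 6 h, then 18 and 14.9 at 72 h, the widest spread between replicates being at 0 h. At the CXCL2 start (chr4:74098650-74099335) it had 12.2 and 10.8, 13 and 8.95, and 10.8 and 11.1 CPM.

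Rad21 was lower at 72 h at a few regions. Summed over 38 regions it was 245 and 206 CPM at 0 h and 163 and 166 at 72 h, and the smallest p the exact permutation test allows for 2 against 2 libraries is 0.333, the value found. edgeR called 4 of the 32 tested Rad21 regions (23.3% of all 83750 tested regions), all lower, where 15.4% of all regions were called higher and 7.91% lower, and the median of the 32 was -0.53. Total counts scaling gave 8 calls and DESeq2 gave 1. Without the first 72 h library there were 0 calls, without the second 72 h library 1, without the first 0 h library 2 (1 of them higher) and without the second 0 h library 5.

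The strongest Rad21 region was again the element upstream of CXCL3 (chr4:74056291-74057688), with 63.7 and 46.0 CPM at 0 h and 22.6 and 25.6 at 72 h (log2 fold change -1.19, SE 0.242, adjusted p 0.00119). That call was lost without the first 72 h library (-1.05, adjusted p 0.0727). It is the one place of the cluster where H3K27ac, Jun and Rad21 each had their highest mean CPM and were each called lower at 72 h. CTCF there was low, with 3.06 and 5.41 CPM at 0 h and 3.23 and 4.92 at 72 h in a region inside it (chr4:74056693-74056999, named after its values were seen). The other 3 called regions were at chr4:73923272-73923929 (15.7 and 9.50 CPM at 0 h, 5.51 and 6.79 at 72 h, -1.06, adjusted p 0.0187), at chr4:74134109-74134701 (13.4 and 14.4, then 5.66 and 8.11 CPM, -1.02, adjusted p 0.0155, named after its values were seen) and at chr4:73908957-73909341 (4.72 and 3.17, then 1.49 and 1.13 CPM, -1.57, adjusted p 0.0477). Each of these 3 was lost with DESeq2 and in 3 of the 4 fits without a library.

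At the 6 CTCF regions with a peak in every library, Rad21 had 7 regions, and in each of them both 72 h libraries lay below both 0 h libraries (log2 fold changes from -1.06 to -0.41). Of those 7, 2 were called. Among all 32 tested Rad21 regions of the cluster, 22 had no overlap between 0 and 72 h, in either direction. That share was not counted over the regions outside the cluster. The Rad21 regions that overlapped a CTCF region had a median of -0.70 (14 regions, 3 called lower), and the 13 tested that overlapped a Jun region and no CTCF region had a median of 0.49 (none called). Of the 10 that overlapped neither, 5 were tested, with a median of -1.46 (1 called lower). The rest failed the count filter, which a region can pass through the libraries of 1 time alone, so no direction is drawn from that median. The difference between those sets was not tested. At the chemokine starts Rad21 was not called: the CXCL2 start (chr4:74099130-74099699) had 12.4 and 11.2 CPM at 0 h and 8.93 and 11.9 at 72 h (-0.20, SE 0.282, adjusted p 0.638), and the CXCL8 start (chr4:73740452-73740706) 2.99 and 2.32 against 5.66 and 1.70 CPM (0.49, adjusted p 0.521). The regions at the starts of CXCL1 and CXCL3, 1.7 kb upstream of PPBP and beside PF4 lay between -1.21 and 0.93, with adjusted p from 0.182 to 0.296.

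**Figure D5:**
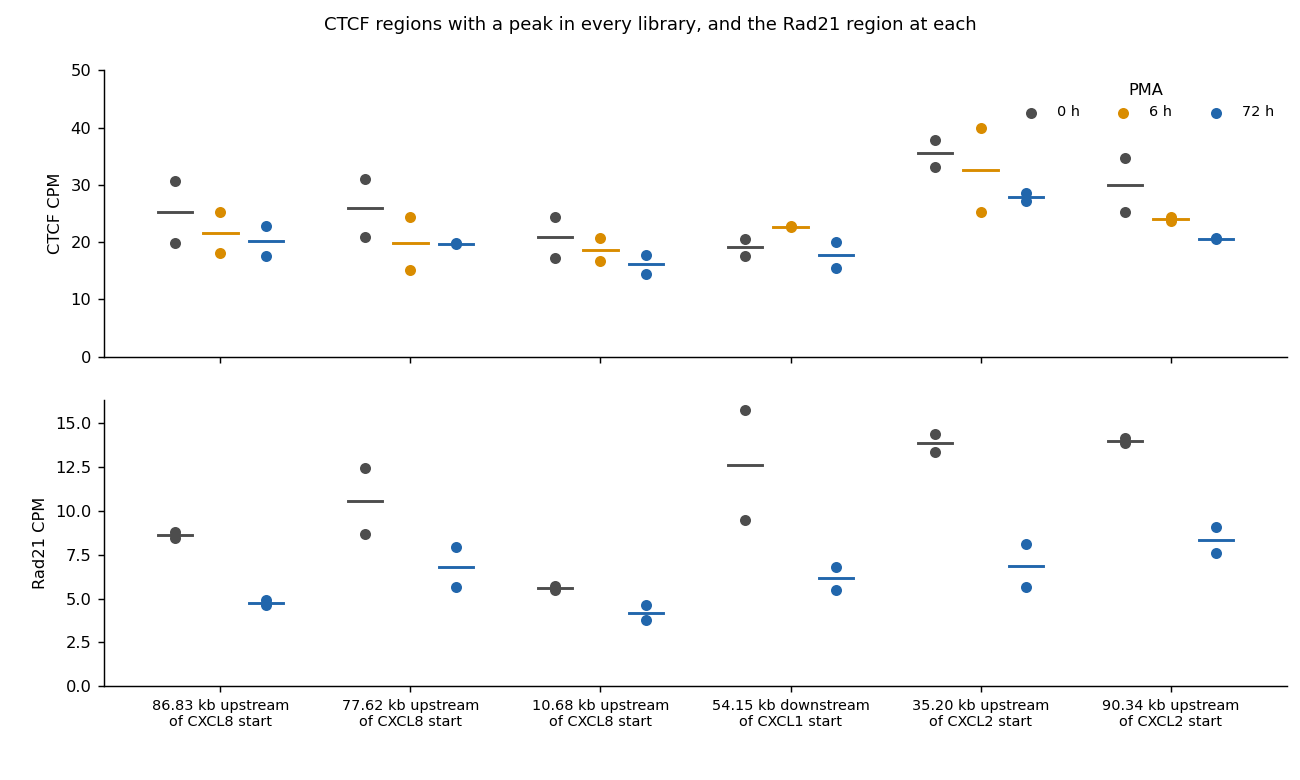
CPM per library (points) with the mean (line) at the 6 CTCF regions with a peak in every library, for CTCF at 0, 6 and 72 h and for the Rad21 region at each at 0 and 72 h (the stronger where there are 2). CTCF libraries of different times overlap at most of these sites, and Rad21 at 72 h lies below 0 h at each.

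Genes of the same pathways elsewhere in the genome were read at the H3K27ac region within 2 kb of their start. Of 11 NF-kappaB subunits and feedback genes, all with a tested region, 2 were called higher and 2 lower at 6 h, and none higher and 7 lower at 72 h, both against 0 h, with a median log2 fold change of -0.59 at 72 h. With total counts scaling the split was 6 higher and 0 lower at 6 h and 3 higher and 7 lower at 72 h. NFKBIZ, which encodes an inducible nuclear protein of the I-kappaB family, had the lowest value (-1.08, SE 0.127, adjusted p 2.78e-08). Of 9 AP-1 subunit genes, 5 were called higher and 3 lower at 6 h, and 6 higher and 1 lower at 72 h, with BATF highest (2.70, SE 0.135, adjusted p 1.51e-15) and JUND lowest (-0.55, SE 0.109, adjusted p 6.8e-05). Jun itself at those 9 genes was called higher at 1 (BATF, 1.18, adjusted p 0.00318) and lower at 6 (JUND lowest, -2.75, adjusted p 4.27e-09) at 72 h. Over all regions, 43.4% of H3K27ac and 28% of Jun regions were called higher at 72 h against 0 h, and 38.1% and 25.7% lower.

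Among 12 other chemokine genes, 4 had a tested H3K27ac region, of which 3 were called higher and 1 lower at 72 h (within 5 kb of the start, 7 had one, 6 higher and 1 lower). In this contrast 81.5% of all H3K27ac regions were called. CCL3, a monocyte-attracting chemokine, had 0.0263 ± 0.0373 CPM at 0 h (SD, n = 2), 2.74 ± 0.0192 at 6 h and 8.70 ± 0.115 at 72 h, and CXCL16 fell from 10.9 ± 0.694 to 5.21 ± 0.254 CPM. Of 6 chemokine receptor genes, 2 had a region, both called higher at 72 h (1 with DESeq2). Of 10 genes for platelet alpha granule cargo, 8 had a region, with 4 called higher and 2 lower at 72 h. THBS1, the thrombospondin gene, was highest (log2 fold change 6.39, SE 0.365, adjusted p 2.06e-14) and VEGFA lowest (-1.01, SE 0.102, adjusted p 1.88e-09). Of 8 platelet receptor genes, 6 had a region, with 3 called higher and 3 lower at 72 h (GP1BB, a subunit gene of the von Willebrand factor receptor, lowest at -1.17, SE 0.104), but within 5 kb 1 was called higher and 5 lower (median -0.76, against 0.19 within 2 kb). Of 9 neighbours of the cluster on chromosome 4, 3 had a region and all 3 were called lower at 72 h, with EREG, which encodes an EGF family ligand, lowest (-1.52, SE 0.12) and MTHFD2L, which adjoins CXCL2, at -0.35 (adjusted p 0.00392, lost with total counts scaling).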

How the data were processed

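Region tables of read counts for each antibody and peak lists were used. Per the submitters' processing notes, Trim Galore 0.4.3, BWA 0.7.17, SAMtools 1.9, deepTools 3.0.1, MACS2 and bedtools 2.26 were used, with builds hg19 and hg38 named. The tool that counted reads per region, and the handling of multiply mapped reads, are not given in the sources used here. The deposited region tables hold raw counts per library, with starts counted from 0, printed here plus 1. The authors' deposited peak lists give a −log10 p and q value and a fold enrichment (a ratio) for each peak, called per library, and only positions and the −log10 q value were used. The deposited log2 fold changes and p-values, and the authors' class labels, were not used for any result, since several labels oppose the direction of the counts.

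Counts were tested with edgeR 4.0.16 (R 4.3.3), by quasi-likelihood with TMM scaling and filterByExpr, all time points of an antibody in 1 fit, adjusted by Benjamini-Hochberg over all tested regions. Alternatives were DESeq2 1.42.0, total counts, other filters, fits of only the 2 times compared, a replicate block and each library left out. Total counts outside the mitochondrial chromosome and the sum without the region of highest mean CPM were chosen after seeing the data. The fits were also run on simulated counts in which few regions changed, as many up as down and only at 72 h. That setting differs from these data, where many regions changed, and does not check the scaling. Named regions are up to 2 per antibody within 2 kb of a member start, the 2 of highest mean CPM per antibody, the CTCF regions of highest CPM that overlap Rad21, and per contrast up to 3 called changes at either extreme whose libraries do not overlap. Others are said to be named after their values were seen. The members and gene lists were chosen with earlier results of these data known. Promoter sequences and names are RefSeq's (GRCh38.p14), and no sequence of a distal element was read. The values of 1 gene of the platelet receptor list are not reported here.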

Additional observations from a re-analysis of the deposited data

How the results depend on the processing

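With total counts scaling the summed log2 change at 72 h against 0 h went from -0.90 to -0.66 (H3K27ac), -0.91 to -0.35 (Jun) and -0.16 to 0.07 (CTCF), and at 6 h from -0.11 to 0.23 (H3K27ac), -0.13 to 0.06 (Jun) and -0.08 to -0.26 (CTCF). Without the region of highest mean CPM, chosen after seeing the data, the sums gave -0.65 and 0.08 for H3K27ac and -0.45 and 0.27 for Jun, at 72 and 6 h. At the CXCL3 start H3K27ac at 6 h turned from -0.11 to 0.22 with total counts and 0.23 with total counts outside the mitochondrial chromosome (also chosen after seeing the data). The cause was not tested. Calls in the cluster became, for Jun, 11 at 6 h and 15 at 72 h with DESeq2. Where the mean count had to reach 50, which tests fewer regions, they became 14 at 72 h and 10 from 6 to 72 h. For CTCF at 72 h they became 2 with only the 2 times compared, 2 with total counts and 1 with the replicate block, and 1 from 6 to 72 h with total counts. For Rad21 they became 1 with DESeq2 and 8 with either total counts scaling. Jun peaks gained from 0 to 72 h went from 22 to 13 at a −log10 q of at least 10. Jun calls from 6 to 72 h among the genes of the lists went from 23 to 9 with total counts and 14 with DESeq2.

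Leaving out 1 library at a time gave 23 to 28, 34 to 36 and 34 to 39 H3K27ac calls (6 against 0, 72 against 0 and 72 against 6 h), 10 to 17, 16 to 17 and 5 to 21 Jun calls, 0 CTCF calls and 0 to 5 Rad21 calls. The summed log2 changes at 72 h stayed within -0.92 to -0.88 (H3K27ac), -0.92 to -0.90 (Jun), -0.24 to -0.08 (CTCF) and -0.58 to -0.32 (Rad21), and at 6 h within -0.20 to -0.02, -0.25 to -0.01 and -0.14 to -0.01 for H3K27ac, Jun and CTCF. Peak gains ranged from -5 to 2, 20 to 24, -0.5 to 3.5 and -8 to -3 for H3K27ac, Jun, CTCF and Rad21. Same-numbered libraries did not deviate together (correlation of deviations between -0.008 and 0.124), so the numbers were not taken as pairs. With the replicate block the calls were 28, 38 and 37 for H3K27ac, 14, 20 and 17 for Jun, 0, 1 and 0 for CTCF and 5 for Rad21.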

Other observations

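The H3K27ac course of the region over most of the CXCL2 gene (chr4:74096776-74098955) was set beside that of 14094 genes with a region, by the distance between their mean log2 CPM at the 3 times. The nearest were NUP205, a nuclear pore gene (distance 0.042), SSR3 (0.072), B3GALNT2 (0.078), and CENPK and PPWD1 (both 0.089), which share 1 region. Likeness over 3 means is a description only.

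Jun regions with a deposited peak in both libraries numbered 8 at 0 h, 12 at 6 h and 29 at 72 h of the 52 in the cluster, and 16 had one in both 72 h libraries and in neither 0 h library. The same counts were not made over all Jun regions. The only Jun region nearest to PF4V1 (chr4:73851063-73851262) held between 5 and 15 raw counts in the 6 libraries.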
